A study of Homo sapiens with 2 samples.

Results

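The collagen genes COL1A1, COL1A2, COL3A1, COL5A1, COL5A2, COL4A1 and COL4A2 were examined for contacts with ADAR1, the enzyme that deaminates adenosine to inosine within double-stranded RNA. A contact was a cluster in a CLIP-seq list, that is, a stretch of the genome where RNA crosslinked to ADAR1 by ultraviolet light had been recovered and sequenced. A cluster was counted for a gene when its midpoint lay inside that gene's hg19 interval and its strand was that of the gene. By this rule 10 of 23782 clusters belonged to the 7 genes, spread over 5 of them. The cells were U87MG, an established human glioblastoma (astrocytoma) line at passage 6, grown in serum-containing medium with no treatment other than the crosslinking. The series has 2 libraries, AB1 and AB2, each made with an ADAR1 mouse monoclonal antibody, and the labels of both name the same catalogue entry. The study's design text instead describes the antibodies as different, so the record disagrees on this point. A single list serves both libraries and carries neither tag numbers nor scores, so no value below has a replicate, the depth is unknown, and AB1 and AB2 cannot be told apart. No knockdown or non-specific antibody library was analysed here, and the list holds no expression values against which the cell type could be checked.

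Collagens are trimers of chains whose repeated glycine residues let them wind into a triple helix. COL1A1 and COL1A2 encode the chains of type I collagen, the main fibre-forming collagen of connective tissue, and COL3A1 encodes that of type III. COL5A1 and COL5A2 encode chains of type V collagen, which starts type I fibrils and limits their width. COL4A1 and COL4A2 encode chains of type IV collagen, the sheet-forming collagen of basement membranes, including those around brain vessels. Other chains of type IV were not examined here. All of these messages are spliced from many short exons. The mRNAs of the type I chains are known to carry a stem-loop around their start codon, which the protein LARP6 binds. ADAR1 is best known for contacts with inverted Alu repeats, primate retrotransposons that lie mostly in introns and untranslated parts of transcripts and can fold back on each other.

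The bases around the start codon of the type I chains are shown because 1 of the 10 clusters lay at the very 5′ end of the COL1A1 interval. Capitals mark the start codon.
COL1A1: gtctagggtctagacATGttcagctttgtg
COL1A2: gtctaagtgctagacATGctcagctttgtg
These are 30-base windows from the mature transcripts COL1A1-201 and COL1A2-201 of GENCODE release 29, and they were identical at 26 of the 30 bases. The likeness is a description of the letters and does not place an ADAR1 site.

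Type I collagen held 3 clusters, all of the non-Alu class that the authors assigned. COL1A1, on the minus strand of chromosome 17, had 2 of them in an interval of only 17.6 kb. The first was 199 bases long, at chr17:48278802-48279000, and its upstream edge was the last base of the interval itself. It therefore covered the interval's first 199 bases as read along the gene. In the transcript COL1A1-201 the first exon has 222 bases and the start codon begins at base 120. The interval ends are round numbers, and GENCODE gives COL1A1 a span of 18344 bases on GRCh38 against 17601 in the interval. At which end the spans differ was not examined, so distances to the interval ends are not distances to the transcript ends. The cluster was therefore not placed base by base on that transcript, and whether it spans the stem-loop was not tested. The second COL1A1 cluster, of 202 bases at chr17:48262776-48262977, lay 15.8 kb downstream of the first and 1376 bases before the 3′ end of the interval. COL1A1 clusters thus sat at the opposite ends of the interval, with none listed in between.

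COL1A2, on the plus strand of chromosome 7, had 1 cluster in 36.8 kb. It was 65 bases long, at chr7:94057609-94057673, and lay 2927 bases before the 3′ end of the interval, at 92.0% of its length. The 5′ end of COL1A2, whose start window is shown beside that of COL1A1, had no cluster. The 65-base cluster was short for its class: 88 of 3582 non-Alu clusters in the whole list (2.46%) were shorter.

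COL3A1, the type III chain, had no cluster, and neither did COL5A2, a type V chain. These genes lie with their 3′ ends towards each other on chromosome 2, COL3A1 on the plus and COL5A2 on the minus strand, in intervals of 38.5 and 148.1 kb. No cluster of either strand or class was listed from base 189445238 to base 190319283, a stretch of 874.0 kb that holds both genes. Stretches without a cluster that were longer than this made up 568 of 23758 in the whole list (2.39%). This share counts stretches and not bases. A long stretch takes up more of the genome than a short one, so a given gene falls into a long one more often than this share. The share by bases was not computed, and 2.39% does not measure how unusual the place of these genes is. GENCODE gives COL5A2 a longer span of 193.4 kb on GRCh38, 45.3 kb more than the interval used here, and the empty stretch extends 274.6 kb past the interval on the upstream side of COL5A2. With no depth behind the list and no RNA levels for these cells, a gene without a cluster cannot be told apart from a gene whose RNA was scarce.

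COL5A1, the type V chain on the plus strand of chromosome 9, had 2 clusters in 203.1 kb, both Alu. The first, of 199 bases at chr9:137557776-137557974, lay 24.2 kb from the 5′ end, and the second, of 194 bases at chr9:137692391-137692584, lay 158.8 kb from it. They were 134.4 kb apart, the widest spacing within any of the 7 genes. Type V collagen thus had clusters in 1 of its chains examined here and none in the other. COL5A1 was the only fibrillar chain of the 5 with an Alu cluster.

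COL4A2 had the most clusters of the 7 genes, 4 in 205.8 kb on the plus strand of chromosome 13. The first 3 along the gene were Alu and the last was non-Alu. The Alu clusters were 175 bases long at chr13:111079667-111079841, 193 bases at chr13:111146900-111147092 and 229 bases at chr13:111157390-111157618. The non-Alu cluster, of 213 bases at chr13:111164665-111164877, ended 523 bases before the 3′ end of the interval. The last exon of the transcript COL4A2-201 has 1276 bases, but no exon was assigned, because no hg19 annotation was used here. The span of COL4A2 in GENCODE is 207.4 kb on GRCh38, against 205.8 kb in the interval, so the distance to the transcript end is not known. The spacing narrowed towards the 3′ end, from 67.1 kb between the first pair to 10.3 kb and 7.0 kb. Of 23734 gaps between consecutive same-strand clusters in the whole list, 16.7% were shorter than the narrowest of these, and the list's median gap was 45.7 kb.

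COL4A1 had 1 cluster in 158.2 kb, on the minus strand. It was an Alu cluster of 204 bases at chr13:110808075-110808278, 6775 bases before the 3′ end of the interval. COL4A1 and COL4A2 stand head to head and are known to share a promoter region. Between the COL4A1 cluster and the first COL4A2 cluster lay 271.4 kb with 0 clusters on either strand, which takes in the 5′ ends of both genes. The whole list held 0.401 clusters per 100 kb of each strand. How common empty stretches of this length are in the list was not computed, and a link to the promoter region was not tested. The type IV chains examined here together had 5 clusters, 4 Alu and 1 non-Alu, against 3 clusters, all non-Alu, in the type I chains.

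**Figure D1:**
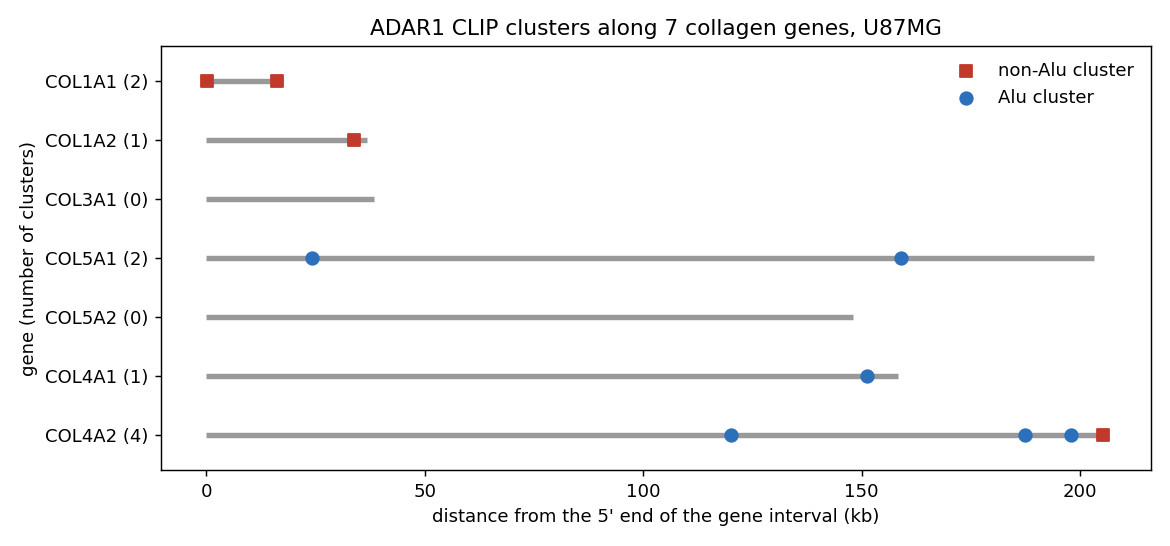
Position of the 10 clusters (squares for non-Alu, circles for Alu) along the 7 gene intervals, in kb from the 5′ end of each gene, with grey bars for the intervals. The type I genes carry only non-Alu clusters, COL3A1 and COL5A2 carry none, and 6 of the 10 clusters lie in the last 10% of their interval.

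Most collagen clusters lay far down the gene. In 4 genes, COL1A1, COL1A2, COL4A1 and COL4A2, 6 of the 10 clusters lay in the last 10% of the interval. COL4A2 held 3 of these and the other genes 1 each. Some lay close to the cut, at 91.1% of the interval in COL4A2, 91.6% in COL1A1 and 92.0% in COL1A2. Because interval ends are not transcript ends, a count by transcript ends could differ. Only 2 clusters lay in the first 50%, the one at the 5′ end of COL1A1 and the first of COL5A1, 24.2 kb from the 5′ end. Positions were not compared with those in other genes, since no other gene was placed on hg19 here.

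Where clusters were listed, they were non-Alu in the shorter genes and mostly Alu in the longer ones, by size limits chosen after the values were seen. Of the intervals under 40 kb, COL1A1 and COL1A2 held 3 clusters, all non-Alu, and COL3A1 held none. Of the 4 intervals over 140 kb, COL5A1, COL4A1 and COL4A2 held 7 clusters, 6 of them Alu, and COL5A2 held none. By GENCODE, exons make up 36.7% of the span of COL1A1-201, 14.8% of COL1A2-201 and 14.4% of COL3A1-201, against 3.15 to 4.78% in the 4 longer genes. No cluster was assigned to an exon or intron, and whether these shares bear on the class was not tested. Over the 7 genes, 4 of 10 clusters were non-Alu (40%, Wilson 95% interval 16.8 to 68.7%), against 3582 of 23782 in the whole list (15.1%, interval 14.6 to 15.5%). These intervals cover counting error only. Clusters of 1 gene share their transcript and are not independent, so no test of this difference was made.

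The collagen clusters had the usual length of the list. Their median was 199 bases with a range of 65 to 229 bases, against a median of 192 bases and a range of 14 to 1509 bases for the whole list. The order-statistic 95% interval of the collagen median, 175 to 213 bases, contained the list's median. Apart from the 65-base cluster of COL1A2, all were between 175 and 229 bases long. None came near the longest clusters of the list.

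**Figure D2:**
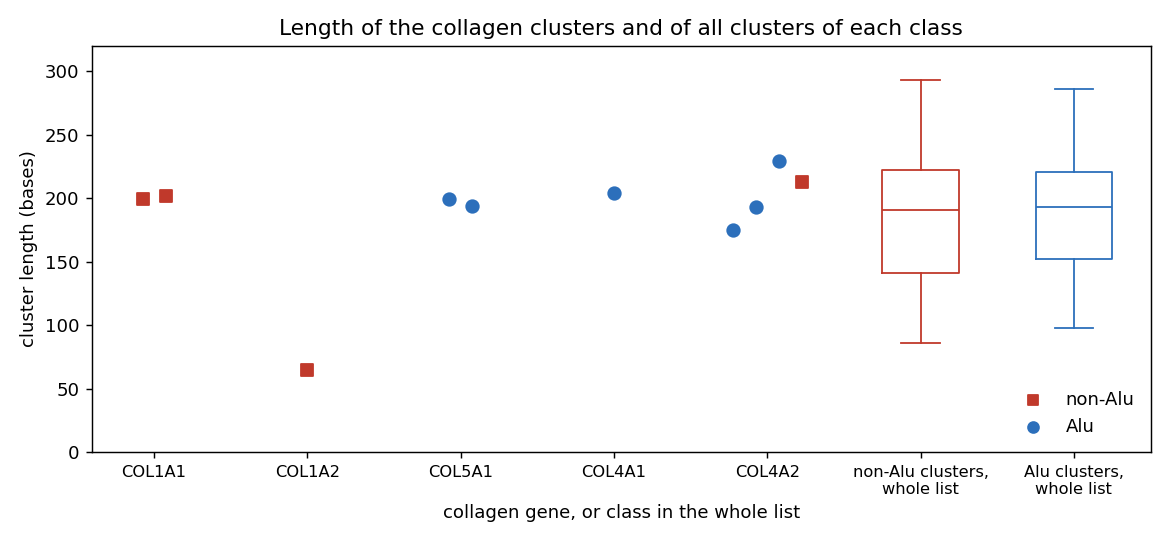
Length in bases of each collagen cluster by gene (points), beside boxes for all non-Alu and all Alu clusters of the list (line at the median, box from the 25th to the 75th percentile, whiskers from the 5th to the 95th percentile). The 65-base COL1A2 cluster lies below the whisker of its class, and the other 9 lie between 175 and 229 bases.

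Like most clusters of the list, the collagen clusters had no close neighbour. None of the 10 had another cluster on its strand within 1000 bases (0%, Wilson 95% interval 0 to 27.8%). In the whole list 1593 of 23782 clusters had one (6.7%). By class these were 611 of 3582 non-Alu clusters (17.1%) and 982 of 20200 Alu clusters (4.86%). The 0% was within what counting error allows for the whole list and for either class. The closest pair, the last 2 clusters of COL4A2, was 7046 bases apart. Of the gene intervals, clusters covered 2.28% in COL1A1, 0.394% in COL4A2, and between 0.129 and 0.194% in COL1A2, COL5A1 and COL4A1.

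The opposite strand of the genes was empty of clusters, and few clusters on a gene's own strand lay next to it. Flank counts below are for that strand only. Clusters of the other strand lay 39.5 kb downstream of COL4A2 and 74.4 kb upstream of COL1A1. No minus-strand cluster lay in a plus-strand interval or the reverse, so all 10 clusters in these intervals, whatever the strand, carried the strand of the collagen gene. The gene intervals held 1.24 clusters per 100 kb on their own strand. The 100 kb on each side held 0.071 per 100 kb on the same strand, a single cluster in 1400 kb, which lay 57.4 kb downstream of COL1A1. With 500 kb on each side the value was 0.243 per 100 kb, from 17 clusters. Over the whole list, counted from the first to the last cluster of each chromosome on each strand, it was 0.401 per 100 kb. The ratio of the genes to their flanks was 17.3 with the nearer flanks (exact 95% interval 2.46 to 752) and 5.10 with the wider ones (2.085 to 11.8). Flanks of either size run partly through a neighbouring gene of the set, for COL4A1 with COL4A2 and for COL3A1 with COL5A2. There they are the opposite strand already counted above as empty, which lowers the flank values and raises the ratio. The empty opposite strand and the low flank values are therefore in part the same result. Whether the flanks are transcribed in these cells was not tested, so the ratio does not separate collagen genes from transcribed genes at large.

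Between the genes the density varied more. COL1A1 had 11.4 clusters per 100 kb, COL1A2 2.72, COL4A2 1.94, COL5A1 0.985 and COL4A1 0.632, while COL3A1 and COL5A2 were at 0. The order rests on 0 to 4 clusters a gene, and 1 cluster more or fewer in a gene would change its place in that order for each gene but COL1A1 and COL4A2.

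**Figure D3:**
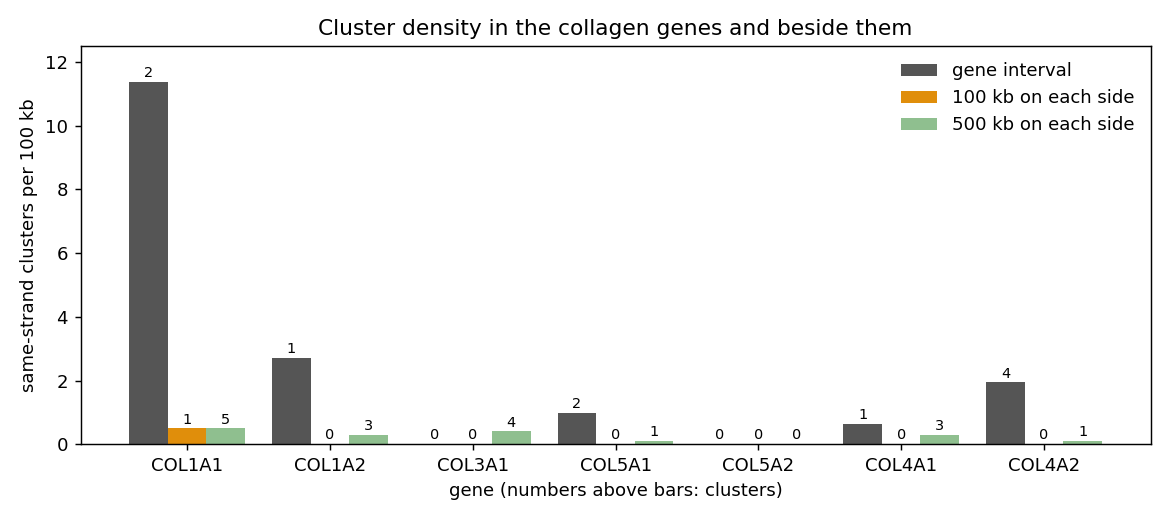
Clusters per 100 kb on the strand of the gene, in each gene interval, in the 100 kb on each side and in the 500 kb on each side, with the number of clusters above each bar. COL1A1 is highest at 11.4 from 2 clusters, and of the nearer flanks only those of COL1A1 hold a cluster.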

How the data were processed

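The authors deposited 1 list of ADAR1 CLIP-seq clusters on hg19 for both U87MG libraries, giving start, end, strand and an Alu or non-Alu class. Per the submitters' processing notes, cutadapt 1.1 and Novoalign 2.08.22 were used. Of the caller of the clusters, its settings, the treatment of reads with several matches, the joining of AB1 with AB2 and the rule for the class, nothing is given in the sources used here. Each can change which repeat copies are listed and where cluster edges fall.

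Starts were read as counted from 0, as in BED files, and are printed counting from 1. No header says which count was used, so an error of 1 base in the starts is possible. Clusters were assigned by midpoint and strand to intervals whose ends are rounded to 100 bases. No hg19 genome or annotation was used, so cluster sequence, exons, introns and further genes of collagen making were not analysed here. GENCODE release 29 (GRCh38) gave transcript lengths and letters only.

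All 7 genes were named, with each of their clusters. The genes and measures were chosen with earlier results of these data known. With no replicates, no test was made; Wilson, order-statistic and exact binomial intervals cover counting error only. The assignment of clusters to genes was checked on simulated clusters placed inside the intervals. The neighbour and merging rules were checked on a small made-up set, and the other steps were not checked in this way. Python 3.11.15, numpy 2.4.6, pandas 2.3.3, scipy 1.17.1 and matplotlib 3.10.9 were used. Alternatives varied the overlap rule, strand, interval ends, merging, length, neighbour distance, flank size and the gene with the most clusters.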

Additional observations from a re-analysis of the deposited data

How the results depend on the processing

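The number of collagen clusters was 10 with any overlap, with strand ignored, with intervals extended by 5000 bases and after merging clusters within 50 bases. It was 8 when clusters shorter than the list's median were left out. The non-Alu share was 37.5% among those 8 and 50% without COL4A2, the gene with the most clusters. Leaving out the type I genes, which held 3 of the 4 non-Alu clusters, was not among the alternatives, but the counts give its result. It leaves the 7 clusters of the intervals over 140 kb, since COL3A1 had none, and 1 of these 7 was non-Alu. The share in the whole list was 15.1%, so the 40% stood above it only with the type I genes counted. In COL4A1 and COL4A2 together 1 of 5 clusters was non-Alu (20%), and in COL5A1 none was, so the share depends on the type I genes. The median length was 199 to 200.5 bases in each setting. No collagen cluster had a neighbour within 200, 1000 or 5000 bases, after merging or without COL4A2. With the closest pair 7046 bases apart, neither the merging nor these distances could change a value, so they say nothing of stability. The same holds for leaving out COL4A2 where no cluster had a neighbour. Nor could ignoring the strand change the number of clusters, since the opposite strand was empty. The extension by 5000 bases could not reach the nearest cluster beyond an interval, which lay 39.5 kb from COL4A2. The density ratio was 17.3 with flanks of 100 kb, which rests on 1 flanking cluster, and 5.10 with flanks of 500 kb. Flanks of either size took in the opposite strand of neighbouring collagen genes, and the ratio without those bases was not computed. No paired analysis was possible because AB1 and AB2 share a single list with no column for either, which also means that neither could be left out. With no tag numbers, weak clusters and genes without a cluster cannot be judged.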
